A study of Mus musculus with 2 samples.

Results

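The 2 globin loci of the mouse were described by the CTCF-bound regions that a chromatin immunoprecipitation sequencing (ChIP-seq) library of thymocytes held around them. Regions were taken by position alone. The 25-bp windows that the authors had placed in peaks were joined where they adjoined, and a region was kept if its midpoint lay in mm9 chr11:32050000-32300000 (the alpha-globin window, named for Hba-a1 and Hba-a2) or chr7:110800000-111200000 (the beta-globin window, named for Hbb-b1 and Hbb-b2). This gave 28 regions in the alpha-globin window and 7 in the beta-globin window, 35 of the 51660 regions on the autosomes and the X. The library came from CD4+CD8+ (double-positive, DP) thymocytes of C57BL/6 mice aged 4 to 8 weeks, precipitated with an anti-CTCF antibody after fixation in 1% formaldehyde for 10 min. The mice were Rag1 -/- and carried a rearranged TCRbeta transgene, so they lack the recombinase that assembles antigen receptor genes and their thymocytes reach the DP stage with the transgenic chain. An input library of the same genotype and age was listed and is not analysed here. With 1 CTCF library there is no replicate, no spread between mice and no control beside these positions. The file holds no reads, height or score, so depth is unknown, no globin RNA was measured and the labelled cell type could not be checked against markers.

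CTCF recognises DNA through its zinc fingers and, together with cohesin, holds the ends of chromatin loops. The alpha- and beta-globin clusters encode the 2 kinds of chain of haemoglobin and are active in red blood cell precursors. Each cluster is controlled by distant enhancers. Most of those of the alpha cluster lie in the introns of the neighbouring gene Nprl3, and those of the beta cluster form the locus control region beside the embryonic genes. CTCF sites on either side of both clusters are known from erythroid cells.

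The 2 clusters sit among different genes. In the order of the RefSeq gene table (GRCm38, used for names and order only), the alpha cluster runs as Hba-x (the embryonic zeta chain), Hba-a1 (an adult alpha chain), Hbq1b (a theta globin), Hba-a2 (the other adult alpha chain) and Hbq1a (the other theta globin). Its nearest neighbours are Nprl3, a regulator of nutrient signalling, on the low-coordinate side and the non-coding RNA Gm46275 on the other. Beyond Nprl3 follow Mpg (a DNA repair glycosylase), Rhbdf1 (an inactive rhomboid protein), Snrnp25 (a subunit of the minor spliceosome) and Il9r (the interleukin 9 receptor), and beyond Gm46275 lies Sh3pxd2b, an adaptor protein of podosomes. Of 8 flank genes listed for the locus, these 6 were on the same chromosome, while Polr3k was on chromosome 2 and Luc7l on chromosome 17. Among the 20 nearest genes on each side of the alpha cluster, 18 of 40 were protein-coding and 0 were olfactory receptor genes.

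Around the beta cluster, 38 of the 40 nearest genes were olfactory receptor genes or pseudogenes, 31 of them protein-coding, and 0 were protein-coding genes of another kind. The cluster runs from Hbb-bt and Hbb-bs (adult beta chains) through Hbb-bh3 (a pseudogene) and Hbb-bh2 to Hbb-bh1 and Hbb-y, which encode embryonic chains. Its nearest neighbours were the olfactory receptor genes Olfr67 and Olfr66. The first protein-coding gene of another kind came after 29 genes on the low-coordinate side (Usp17lc, a deubiquitinase gene) and after 21 on the other (Ubqln5, a ubiquilin gene). The symbols Hbb-b1 and Hbb-b2 were in the table, but with Hbb-bh0 on a separate sequence outside the main chromosome 7. C57BL/6 mice carry Hbb-bs and Hbb-bt as their adult beta genes, and the RefSeq order of the main chromosome 7 holds those in place of Hbb-b1 and Hbb-b2. No mm9 annotation was used, so a region is placed by its distance along the window and is not assigned to a gene, exon, intron or promoter.

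Promoter sequences from RefSeq (GRCm38) were matched by symbol for 9 of the 14 globin genes named here, and not for Hbb-b1, Hbb-b2, Hbb-bh0, Hbb-bh1 and Hbb-bh3. The 250 bases before the start of 5 genes are shown, since they show how alike the duplicated genes of a cluster are and where letters of the CTCF consensus lie. They are written 5′ to 3′ on the strand of the gene, the plus strand of chromosome 11 for the alpha cluster and the minus strand of chromosome 7 for the beta cluster. Capitals mark the letters that match CCNCNAGGG or AGGGGGCGC, parts of the CTCF consensus that share 4 letters where they overlap, searched on both strands.
Hba-a1: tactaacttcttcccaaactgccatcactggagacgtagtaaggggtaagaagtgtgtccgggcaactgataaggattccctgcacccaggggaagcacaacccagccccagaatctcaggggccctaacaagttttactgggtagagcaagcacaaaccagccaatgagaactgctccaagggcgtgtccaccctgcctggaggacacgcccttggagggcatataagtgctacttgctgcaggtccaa
Hbq1b: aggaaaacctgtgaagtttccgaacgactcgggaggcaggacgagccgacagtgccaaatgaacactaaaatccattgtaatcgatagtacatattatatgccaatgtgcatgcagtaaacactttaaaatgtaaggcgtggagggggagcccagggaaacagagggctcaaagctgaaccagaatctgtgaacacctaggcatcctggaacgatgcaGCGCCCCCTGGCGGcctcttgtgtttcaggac
Hbq1a: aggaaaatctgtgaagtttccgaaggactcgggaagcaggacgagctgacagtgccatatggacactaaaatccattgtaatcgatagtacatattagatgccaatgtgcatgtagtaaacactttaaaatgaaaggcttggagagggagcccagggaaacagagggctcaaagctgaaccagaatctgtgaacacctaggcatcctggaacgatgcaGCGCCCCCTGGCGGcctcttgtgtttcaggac
Hbb-bs: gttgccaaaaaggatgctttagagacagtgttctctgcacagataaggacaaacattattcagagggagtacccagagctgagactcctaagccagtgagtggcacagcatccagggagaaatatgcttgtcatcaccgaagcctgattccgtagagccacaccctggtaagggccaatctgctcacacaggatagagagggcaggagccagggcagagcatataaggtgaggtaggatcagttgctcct
Hbb-bt: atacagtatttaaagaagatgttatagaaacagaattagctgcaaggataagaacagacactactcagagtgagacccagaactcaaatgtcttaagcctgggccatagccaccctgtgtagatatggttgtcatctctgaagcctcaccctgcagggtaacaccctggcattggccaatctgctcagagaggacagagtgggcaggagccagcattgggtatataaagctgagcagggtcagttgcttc

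The theta-globin promoters Hbq1b and Hbq1a each held both strings, overlapping, on the strand opposite to the gene. The matches lay at the same place in both, 32 to 24 bases before the start for AGGGGGCGC and 27 to 19 bases before it for CCNCNAGGG. The stretch was GCGCCCCCTGGCGG as read on the strand of the gene. Of 32851 promoters of this length in the table, 69 (0.210%), of 64 genes, held both strings in this arrangement, while CCNCNAGGG was in 5.97% and AGGGGGCGC in 1.11%. The strings were chosen after these promoters had been seen, so these shares are a description. None of the promoters of Hba-x, Hba-a1, Hba-a2, Hbb-y, Hbb-bh2, Hbb-bs and Hbb-bt held either string in these 250 bases. The shorter string CCCTC, on either strand, was in 8 of the 9 globin promoters, all but that of Hbb-bt, and in 60.5% of all promoters. A match of letters is not a bound site.

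The duplicated genes of the alpha cluster were nearly alike in these bases. Hba-a1 and Hba-a2 were identical over all 247 aligned bases, with starts set a few bases apart. Hbq1b and Hbq1a were identical at 239 of 250 bases (95.6%), with a longest unbroken identical stretch of 105 bases that includes the marked letters. Hbb-bs and Hbb-bt matched at 178 of 243 aligned bases (73.3%), and their longest identical stretch was 14 bases. The sources used here do not say how reads that fit more than 1 copy were placed.

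The alpha-globin window was crowded with CTCF regions and the beta-globin window was not. The alpha window held 112 regions per Mb (28 regions in 250 kb, exact 95% Poisson interval 74.4 to 162) and the beta window 17.5 per Mb (7 in 400 kb, 7.04 to 36.1). The density was thus 6.40 times as high in the alpha window (exact 95% interval 2.73 to 17.4, from the Clopper-Pearson interval of the share of regions). These intervals cover counting error only and treat neighbouring regions as independent, and no test between the loci was possible with 1 library. The density ratio also depends on the bounds, since the beta window was drawn with flanks. Its 7 regions span 231 kb of 400 kb, and the 28 alpha regions span 226 kb of 250 kb. With each window cut by 50 kb at each end, the ratio was 5.71. Regions covered 12975 bp, or 5.19%, of the alpha window and 2975 bp, or 0.744%, of the beta window. For reference, 0.865% of the genome lay in regions, at 19.6 regions per Mb.

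**Figure D1:**
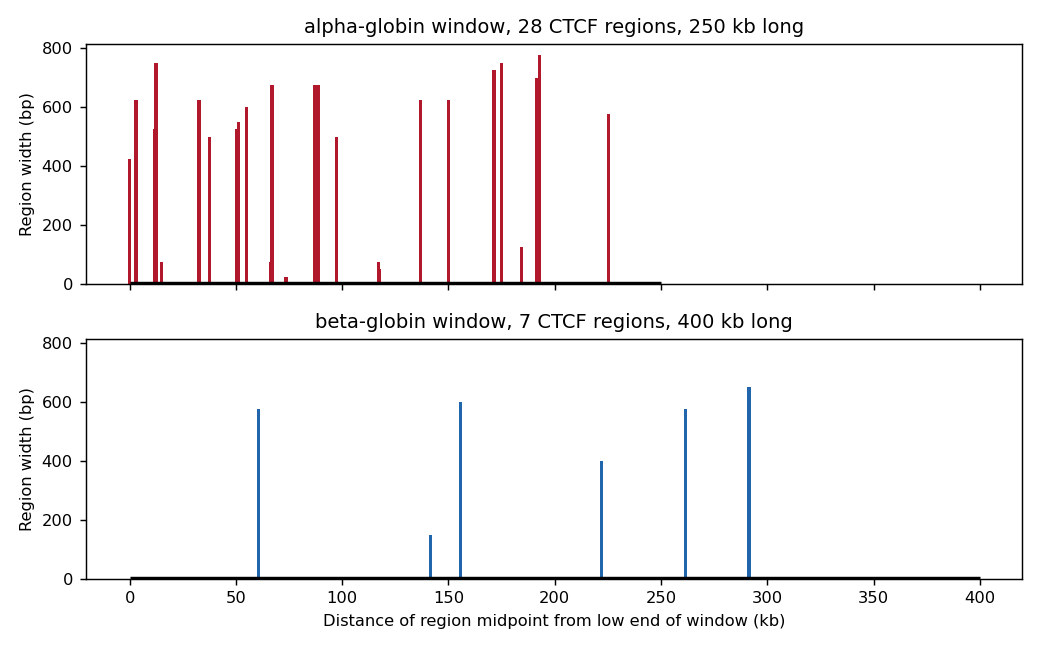
Each bar is a CTCF region, placed by the distance of its midpoint from the low end of the window (kb) with its width (bp) as height, and the black line is the window. Bars are drawn broader than the regions. The 28 alpha regions fill the window up to a last one at 225 kb, while the 7 beta regions stand apart from one another, except for 2 that are 25 bp apart and overlap in the plot.

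Each locus was also set against its own chromosome and against bins of its own length. Chromosome 11 held 33.4 regions per Mb and the alpha window 3.35 times as many, whereas chromosome 7 held 22.9 per Mb and the beta window 0.765 times as many. When the genome was laid out in 10538 bins of 250 kb, 0.655% of bins (69) held at least the 28 regions of the alpha window, and 0.55% (58) had at least its covered bases. The share for the number of regions was 1.43% after joining regions at most 1 kb apart, 1.38% without regions of at most 75 bp and 1.23% among bins of chromosome 11 alone. The median bin of this length held 2 regions, and 33.3% of bins held none. Of 6584 bins of 400 kb, 42.2% (2779) held at least the 7 regions of the beta window and 41.5% (2731) at least its covered bases, with a median of 4 regions and 26.3% of bins empty. The alpha window was therefore at the crowded end of this library, and the beta window near the middle of its bins.

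**Figure D2:**
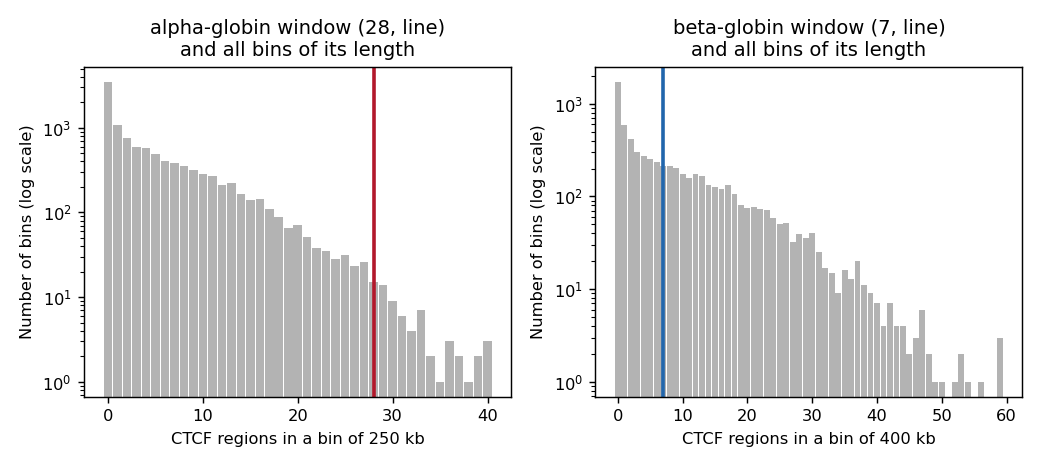
Number of fixed genome bins (log scale) by the number of CTCF regions in the bin, for bins of 250 kb (left) and 400 kb (right). The coloured lines mark the alpha-globin window at 28 regions, where few bins lie further right, and the beta-globin window at 7, inside the bulk of the bins.

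The 7 regions of the beta-globin window formed an island between long empty stretches. The first region, of 575 bp, was at chr7:110860380-110860954 and followed a gap of 791.75 kb without any listed region. The last, of 650 bp, was at chr7:111091105-111091754 and was followed by a gap of 223.775 kb. Of all 51640 gaps between neighbouring regions, 0.792% were longer than the first of these and 3.45% longer than the second. From first to last the island spanned 231 kb. The 28 alpha regions spanned 226 kb, but that span starts at the bound of the alpha window and is no island.

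Inside the island most gaps between beta regions were longer than the genome median. After the first region came a gap of 80.5 kb, the longest of the window (chr7:110860955-110941479), and then a narrow region of 150 bp at chr7:110941480-110941629. A region of 600 bp followed after 13.65 kb, at chr7:110955280-110955879. These 2 are the closest neighbours of the island apart from a split pair further along. The next region, of 400 bp at chr7:111021630-111022029, came after 65.75 kb. The fifth and sixth, of 25 and 575 bp (chr7:111061330-111061354 and chr7:111061380-111061954), were parted by a single unlisted window of 25 bp and became 1 region when regions at most 100 bp apart were joined. The last region stood 29.15 kb beyond them. The median gap in the window was 34.2 kb, against 13.1 kb over the genome, and lay inside the genome quartiles (3.325 and 36.7 kb). Of all gaps, 11.1% were longer than the longest of the window.

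The alpha-globin window had no such edge on its low-coordinate side. Its first region, of 425 bp at chr11:32049821-32050245, overlaps the window's bound, with its midpoint 0.0325 kb inside, and the last region outside, of 700 bp, lay 8.3 kb before it. In all, 5 regions lay in the 50 kb before the window. On the high-coordinate side, the last region, of 575 bp at chr11:32274871-32275445, was followed by a gap of 74.5 kb, and 12.2% of all gaps were longer. In the beta window no region lay near a bound, since the first and last regions inside were 60.7 and 109 kb from it and the nearest outside were 732 and 116 kb away.

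**Figure D3:**
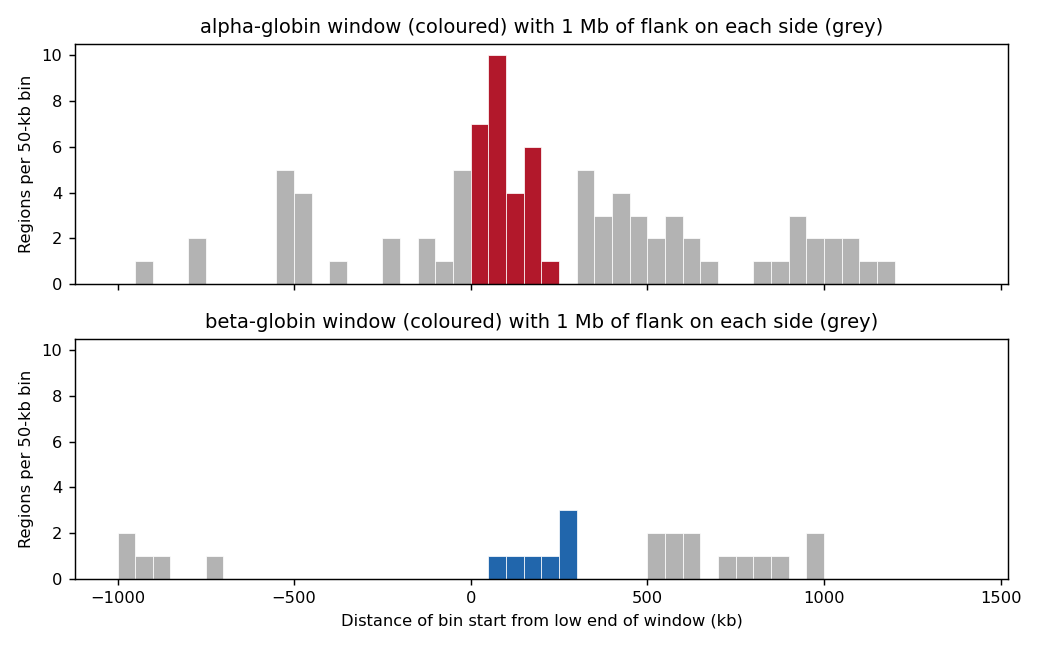
Number of CTCF regions in 50-kb bins along each window (coloured) and 1 Mb on either side (grey), by the distance of the bin from the low end of the window (kb). Alpha bins reach 10 regions against at most 5 in its flanks, while the beta window, at most 3 per bin, stands between empty bins.

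Counted in bins of 50 kb from low to high coordinates, the alpha window held 7, 10, 4, 6 and 1 regions. The beta window held 0, 1, 1, 1, 1, 3, 0 and 0. The fullest beta bin thus held fewer regions than 4 of the 5 alpha bins. In the 1 Mb on each side of the alpha window there were 23.0 regions per Mb (14.6 to 34.5) at lower coordinates. At higher coordinates there were 36.0 per Mb (25.2 to 49.8), and the alpha window itself held 112 per Mb. Beside the beta window there were 5.00 per Mb (1.62 to 11.7) and 12.0 per Mb (6.20 to 20.96). The beta window itself held 17.5 per Mb. These intervals cover counting error only and treat neighbouring regions as independent, so they do not test window against flank. Of the 20 flank bins on a side, 16 and 12 were empty around the beta window, compared with 11 and 4 around the alpha window.

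The alpha-globin regions came as single wide regions, close pairs and broken groups. Of the 27 gaps in the window, 8 (29.6%) were at most 1 kb, compared with 15.1% of gaps over the genome and 1 of 6 in the beta window. The median gap was 6.175 kb and the longest 31.5 kb (chr11:32243371-32274870), ahead of the last region. The 8 gaps of at most 1 kb were, in order, 125, 200, 25, 25, 800, 25, 25 and 975 bp. Those of 25 bp are single unlisted windows inside broken groups. After regions at most 1 kb apart had been joined, 20 alpha and 6 beta regions remained, which gave a density ratio of 5.33.

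The first part of the alpha window, up to 100 kb from its low end, held 17 of the 28 regions. After the region at the bound came a lone region of 625 bp at chr11:32052646-32053270 and a pair of 525 and 750 bp, 125 bp apart (chr11:32061346-32062745). A short region of 75 bp lay 2.175 kb further on, and then regions of 625 and 500 bp stood alone. Another pair, of 525 and 550 bp, was parted by 200 bp (chr11:32100146-32101420) and followed by a region of 600 bp. Next came a broken group, in which 2 regions of 75 bp each stood 25 bp before the next region, the last being 675 bp wide (chr11:32116471-32117345). A lone region of 25 bp, the narrowest the file allows, followed at chr11:32123521-32123545. Next came 2 regions of 675 bp with 800 bp between them (chr11:32136846-32138995), and a region of 500 bp at chr11:32146971-32147470 ended this part. Pairs of regions of at least 525 bp, at most 1 kb apart, were thus found in this part 3 times.

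The middle of the alpha window was sparser. A group of 3 short regions of 75, 50 and 50 bp, parted by 25 bp each, lay at chr11:32167221-32167445, with 19.75 kb before them and 19.175 kb after them free of regions, and this group held no wide region. Then came 2 regions of 625 bp, at chr11:32186621-32187245 and chr11:32199746-32200370. Their starts were 13.125 kb apart, and each was alone for at least 12.5 kb on either side. Their width of 625 bp is the most frequent of the library, and 2 other regions of the window share it. The 2 neighbours at chr11:32136846-32138995 are also of equal width (675 bp), with starts 1.475 kb apart. Other neighbouring starts were 12.925 kb apart (regions of 500 and 525 bp) and 13.325 kb apart (regions of 25 and 675 bp). Whether any region of the window lies at the promoters of Hbq1b and Hbq1a was not tested, since it needs an mm9 annotation.

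The high-coordinate end of the alpha window held its widest regions. Regions of 725 and 750 bp lay 2.75 kb apart at chr11:32221021-32221745 and chr11:32224496-32225245. After a region of 125 bp (chr11:32234196-32234320) came a last pair, of 700 and 775 bp with 975 bp between them (chr11:32240921-32243370). The 775-bp region was the widest of both loci, and 95.7% of all regions in the library were narrower. The 4 regions of this end other than the short one and the last were all at least 700 bp wide, a width that elsewhere in both windows only the 750-bp region of the first pair reached. The 575-bp region 31.5 kb further on was the last.

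The median width was 562.5 bp in the alpha window (mean 463 bp, SD 267 bp across 28 regions) and 575 bp in the beta window (mean 425 bp, SD 246 bp across 7), beside 525 bp over all regions (quartiles 225 and 625 bp). The order of the medians turned with the processing: the alpha median was the higher one, at 612.5 to 625 bp against 575 to 587.5 bp, when close regions were joined, short ones dropped or only wide ones kept. Regions of at least 525 bp were 17 of 28 (60.7%) in the alpha and 4 of 7 (57.1%) in the beta window, and 51.8% over the genome. Regions of at least 625 bp, the most frequent width of the library, were 12 of 28 (42.9%) and 1 of 7 (14.3%), against 29.9%. The widest beta region, of 650 bp, was wider than 79.6% of all regions.

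**Figure D4:**
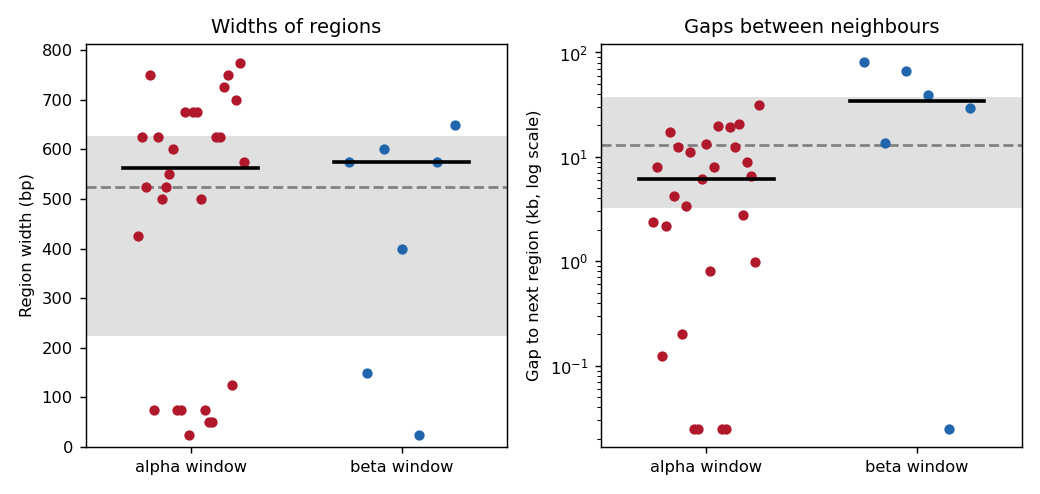
Widths of the regions (left, bp) and gaps to the next region in the window (right, kb, log scale), 1 point per region or gap in order of position, with the median as a black bar. The grey band and dashed line give the quartiles and median of all regions or gaps. The median width is 562.5 bp in the alpha and 575 bp in the beta window, and the median gap is 6.175 kb in the alpha window and 34.2 kb in the beta window.

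Short regions, of at most 75 bp, made up 7 of the 28 alpha regions (25%), 1 of the 7 beta regions and 14.1% of all regions. Of the 7 in the alpha window, 5 lay within 100 bp of another region, as did the 1 in the beta window and 52.2% of short regions over the genome. Counted singly, such pieces raise the number of regions. With regions at most 100 bp apart joined, the windows held 24 and 6 regions and the density ratio was again 6.40.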

How the data were processed

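CTCF binding was measured by ChIP-seq in 1 library of DP thymocytes. Per the submitters' processing notes, Bowtie placed the reads on mm9. Its version, the peak caller, the threshold and any role of the input were not given in the sources used here. What the authors deposited is a list of 912174 windows, each of 25 bp, inside peaks, as positions only. Starts were read as counted from 0 and are printed counted from 1. Adjoining windows (gap 0 bp) were joined into 51661 regions, and 1 mitochondrial region was left out.

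Numbers, widths and gaps were computed per window, with exact 95% Poisson intervals. Bins of the windows' lengths were laid from the start of each chromosome to its last listed position, and regions placed by midpoint. Genes were taken as named in the plan, with each cluster's 20 nearest genes per side. Their order came from the main-chromosome rows of the RefSeq table of 49997 genes. Promoters were aligned pairwise in Biopython with end gaps free. The search for CTCF letters inside the bound regions was not run, since no mm9 sequence was used. The joining, window and bin steps were tested on simulated data. The windows, members and lists were chosen with earlier results of these data known. Software was Biopython 1.88, SciPy 1.17.1, pandas 2.3.3, matplotlib 3.10.9 and NumPy 2.4.6 under Python 3.11.15.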

Additional observations from a re-analysis of the deposited data

How the results depend on the processing

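The alternatives joined regions within 100 or 1000 bp of each other, dropped those of 75 bp or less, kept regions of at least the genome median width, required regions to lie whole inside the window, or cut or widened each window by 50 kb at each end. Under these the alpha-to-beta density ratio ran from 5.33 to 6.80. Cutting or widening the beta window left its 7 regions unchanged, so these settings moved its density only through its length. With each density taken relative to that of its own chromosome, the ratio was lower, at 4.38. Median widths were recomputed for both joins, without short regions and among wide regions, and were then 612.5 to 625 bp in the alpha and 575 to 587.5 bp in the beta window, the reverse of their order without these changes (562.5 and 575 bp). Both numbers of regions stayed within 1.5 times their value, except with regions of at least 525 bp, which left 17 alpha and 4 beta regions, as fewer regions were kept. The share of bins with at least as many regions as the alpha window was 0.968% and 1.43% after joining at 100 and 1000 bp, 1.38% without short regions, 0.437% among wide regions and 1.23% on chromosome 11 alone. For the beta window it was 44.4% after joining at 100 bp, 40.5% among wide regions and 45.7% on chromosome 7 alone. The cause of these shifts was not tested. Bins shifted by 0.5 of their length gave 0.646% and 42.5%. Without heights or depth, a position that is not listed may be unbound or weakly bound. It may also be one where reads that fit more than 1 copy were not placed, which was not tested.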
